A study of Mus musculus with 32 samples.

Results

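Livers of male C57/BL6 mice that received an agonist of both the GLP1R and the GCGR on a methionine and choline deficient (MCD) diet were set against livers of mice that received the same agonist on a standard diet. The MCD diet with agonist group (MCD-agonist livers) had the MCD diet for 3 weeks and, after the first week, the agonist at 4.4 mg/kg/day every 2 days. The standard diet with agonist group (standard-agonist livers) had the standard diet and the same dose and interval of agonist over 2 weeks. No mouse of either group underwent hepatectomy, and every mouse of both groups received the agonist, so the contrast shows the diet in treated animals only. The 2 groups were taken from the sample labels and hold 4 livers each, 8 of the 32 livers of the series, each on its own one-colour oligonucleotide array. The same diets without agonist (4 livers each) served for the comparison of diet changes near the end. The agonist is not named in the labels, and the hour of sampling and the feeding state are not given in the sources used here.

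The MCD diet withholds methionine, from which the liver makes the methyl donor S-adenosylmethionine, and choline, which it needs for phosphatidylcholine and for the export of lipoproteins. Mice on it accumulate liver fat and lose weight. Glucagon acts on hepatocytes through its receptor and cAMP and raises glucose output, amino acid breakdown and fat oxidation, while the GLP-1 receptor acts mainly in pancreas, gut and brain.

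Levels are log2 signal relative to the 75th percentile of the same array, and they are not compared between genes. Changes are differences of these log2 levels, MCD-agonist minus standard-agonist, ± SE from limma, and "rose" and "fell" are used for genes with an adjusted p under 0.05. Of 21710 genes tested, 3292 changed (15.2%), of which 1758 rose (8.1%) and 1534 fell (7.07%), and the median change over all genes was 0.03. Scaling each array to its median placed that median at -0.13 and gave 1018 rises and 1860 falls, and quantile normalization gave 1716 and 1697. In 3079 genes (14.2%) the 4 arrays of one group did not overlap with the 4 of the other, 1619 with higher (7.46%) and 1460 with lower levels (6.73%) in MCD-agonist livers.

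All 8 arrays lay on 1 slide and were read in 1 session, MCD-agonist livers in row 2 and standard-agonist livers in row 1, so diet and slide row cannot be told apart. Between 44.4% and 60.5% of spots on the MCD-agonist arrays and between 48.4% and 58.3% on the standard-agonist arrays were well above background, and no spot was saturated. In the submitters' processed table, 16 of 32 columns matched an array of another group best, standard diet with agonist being exchanged with MCD diet. The scanner files and their labels were used, and which of the 2 sources carries the right labels was not tested. The directions of the diet contrast under the agonist rest on the scanner files' labels. The difference of diet changes near the end is the same under both labellings, since exchanging these 2 groups leaves its sum unchanged. The diet changes without agonist, the group levels and the order of groups given beside it rest on the scanner files' labels as well. By the table's labels the livers called standard-agonist here would be MCD diet livers without agonist, and the contrast would be of agonist within the MCD diet. The diet contrast by the table's labels gave 3411 changed genes, 639 of them shared with those reported here. In it 3 female-biased liver genes rose and 4 fell, 0 male-biased ones rose and 3 fell, 1 core clock gene rose and 0 fell, and 0 Kupffer cell markers rose and 5 fell. With the 8 arrays fitted alone, 1248 genes passed, 635 up and 613 down. The Y-linked genes Ddx3y and Eif2s3y were well above background on all 8 arrays, with changes of -0.02 ± 0.22 and -0.26 ± 0.37. The liver marker Alb, the plasma albumin gene, did not pass (-0.45 ± 0.24), and of 15 hepatocyte markers 0 rose and 2 fell, with 0 falls without MCD-agonist array 2 or 4 or standard-agonist array 2 and 1 without MCD-agonist array 3 or standard-agonist array 1 or 4. In whole liver, fewer cells of a type and less RNA per cell cannot be told apart.

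Genes that differ between male and female mouse liver had the highest and the lowest median change of the 45 gene lists examined. This sexual dimorphism is set by the pattern of pituitary growth hormone release, pulsatile in males and steadier in females, acting through STAT5B and the repressors BCL6 and CUX2. In all lists a gene counted as measured if any of the 8 groups had it well above background on all 4 arrays. Genes high in 1 group only could therefore enter, and genes dim in every group could not. Of the female-biased list, Sult3a1, A1bg and Hao2 were left out in this way. Of 19 measured female-biased genes 16 rose and 0 fell, with a median change of 3.90. That median was 2.54 with normexp background correction and 2.51 with the submitters' table read at its matched arrays (the matched table), with 15 rises in both. Of 21 measured male-biased genes 0 rose and 14 fell, with a median change of -2.72.

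Cyp2b9, a female-predominant P450 (mm9 chromosome 7, 26983484 to 26983543), had levels of 3.60, 3.16, 3.14 and 3.20 in MCD-agonist livers, against -3.99, -6.06, -5.69 and -4.83 in standard-agonist livers. The change was 8.42 ± 0.60 (adjusted p = 1.13e-10), and the lowest MCD-agonist array stood far above the highest standard-agonist array. Cyp2b9 was well above background on 1 of 4 standard-agonist arrays. Cyp2b10, a P450 induced through the receptor CAR (mm9 chromosome 7, 26711522 to 26711581), had levels of 7.08, 7.10, 7.16 and 6.32 in MCD-agonist livers, against 2.15, -1.07, -1.04 and -0.61 in standard-agonist livers. Its groups did not overlap (7.06 ± 0.61, adjusted p = 7.86e-09), although standard-agonist array 1 was clearly higher than the other 3 of its group. The related Cyp2b13, also female-predominant, had a change of 6.84 ± 0.30. Cyp2b probes share sequence, so the single paralog is uncertain. Cyp2a22 was not well above background on any standard-agonist array and was at least 75.6-fold higher in MCD-agonist livers. In that bound, the mean MCD-agonist level is divided by the higher of the probe's own level and the lowest level well above background on each standard-agonist array. Here and for the genes below, such a bound holds only for the scaling and background treatment reported. With normexp correction the log2 change of Cyp2a22 was 3.37, less than the bound. Cyp3a44, another female-predominant P450, had a change of 5.36 ± 0.64, and Slc22a27, an organic anion transporter, one of 5.37 ± 0.51. Both were well above background on 1 of 4 standard-agonist arrays. With normexp correction the log2 changes were 5.66 for Cyp2b9, 3.87 for Cyp2b13, 2.63 for Cyp3a44, 2.54 for Slc22a27 and 6.58 for Cyp2b10. Cyp2a4, a steroid hydroxylase higher in females, was at 8.15, 8.10, 8.11 and 8.55 in MCD-agonist livers, against 6.75, 5.75 and 4.88 in standard-agonist livers (2.44 ± 0.31, adjusted p = 7.15e-06), with standard-agonist array 4 missing from the fit as an outlier spot. Sult1e1, which sulfates estrogens, was at 5.23, 3.52, 4.04 and 5.33 in MCD-agonist livers, against -0.81, -3.36, -2.60 and -3.30 in standard-agonist livers, without overlap (7.05 ± 1.43, adjusted p = 0.00113).

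Cyp4a14, a fatty acid omega-hydroxylase under PPAR-alpha, was at 8.38, 9.43, 9.13 and 9.34 in MCD-agonist livers, against 1.70, 4.0, 5.19 and 4.88 in standard-agonist livers. All MCD-agonist arrays were above all standard-agonist arrays (5.12 ± 0.65, adjusted p = 4.85e-06). Acot3, a peroxisomal acyl-CoA thioesterase, rose beside it by 5.61 ± 0.60.

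**Figure D1:**
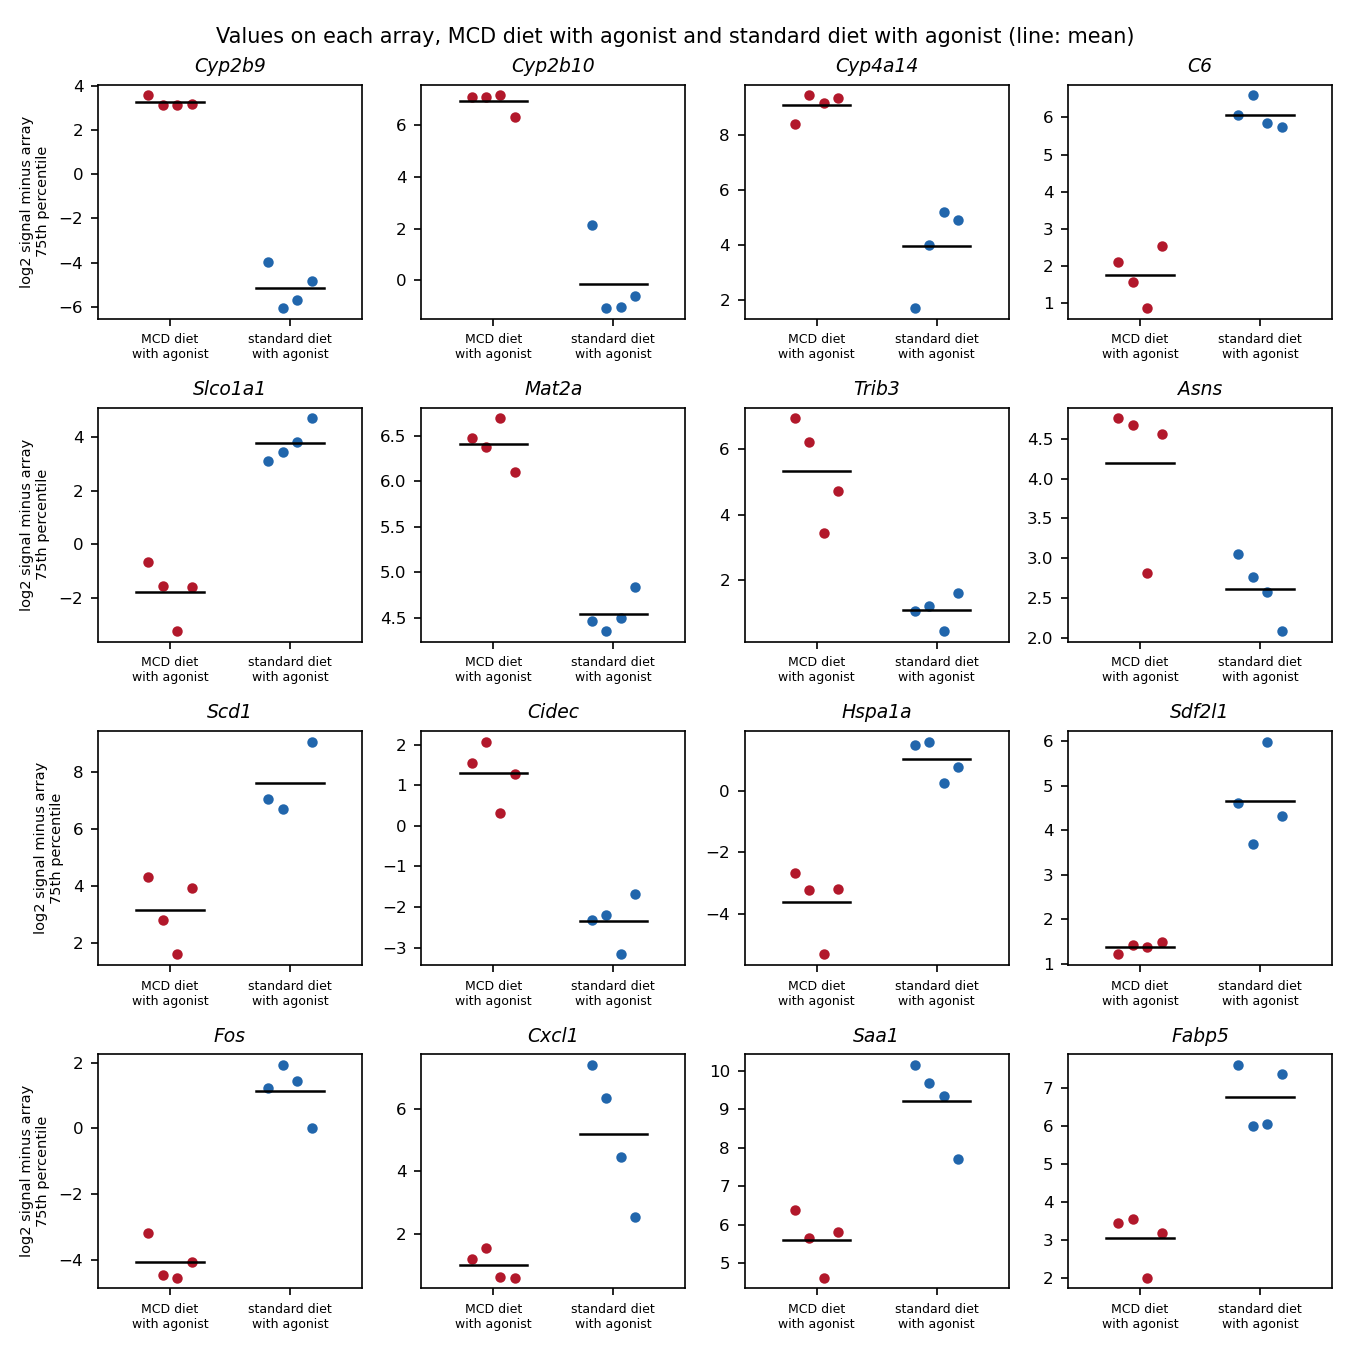
Levels of 16 genes on each array as log2 signal minus the array's 75th percentile, with MCD diet with agonist on the left and standard diet with agonist on the right; points are single livers and lines are group means. The groups do not overlap for any gene shown except Asns, where MCD-agonist array 3 (2.81) lies within the standard-agonist range, and Scd1 has 3 standard-agonist points because 1 outlier spot was left out.

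Among the male-biased genes, C6, a terminal complement component (mm9 chromosome 15, 4748363 to 4748422), was at 2.10, 1.57, 0.87 and 2.53 in MCD-agonist livers, against 6.06, 6.60, 5.85 and 5.75 in standard-agonist livers. The groups were separated by more than 3 log2 units (-4.30 ± 0.41, adjusted p = 4.41e-08). Slco1a1, an organic anion uptake transporter, was at -0.65, -1.54, -3.24 and -1.61 in MCD-agonist livers, against 3.11, 3.45, 3.81 and 4.70 in standard-agonist livers. It fell by 5.53 on the log2 scale (adjusted p = 0.0104), with no overlap. Elovl3, a fatty acid elongase, was at -0.49, -0.54, -0.88 and -0.76 in MCD-agonist livers, against 2.57, 3.58, 5.13 and 4.81 in standard-agonist livers, and again the groups stood apart (-4.69 ± 1.34, adjusted p = 0.0167). Changes of the same direction were found for the testosterone-dependent hydroxylases Cyp4a12a (-4.01 ± 0.90) and Cyp4a12b (-4.08 ± 0.86), a pair that probes may not tell apart, for the growth factor receptor Egfr (-2.82 ± 0.49), the complement regulator Susd4 (-2.72 ± 0.62) and the monooxygenase homolog Moxd1 (-6.04 ± 1.33). Serpina4-ps1, a serpin pseudogene, varied more than any of these within MCD-agonist livers, with levels of -5.06, -2.36, -6.17 and 0.50 in MCD-agonist livers, against 3.24, 7.13, 6.37 and 8.15 in standard-agonist livers (-9.50 ± 2.01, adjusted p = 0.00166). Moxd1 and Serpina4-ps1 were well above background on 1 and 2 of the 4 MCD-agonist arrays. Cspg5, a neural proteoglycan, was well above background on 2 of 4 MCD-agonist arrays and changed by -4.05 ± 0.78 (adjusted p = 0.000715), without overlap. The 8 arrays fitted alone gave 13 female-biased rises and 15 male-biased falls.

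Growth hormone and insulin signalling genes gave 2 rises and 5 falls among 22 measured, with a median change of -0.64. Bcl6, the male-pattern repressor of female genes, was at 1.41, 0.74, 1.04 and 0.69 in MCD-agonist livers, against 4.48, 3.15, 3.17 and 4.28 in standard-agonist livers, with no overlap (-2.80 ± 0.52, adjusted p = 0.0005). Cish and Socs3, feedback inhibitors of cytokine receptors, had changes of -2.33 ± 0.44 and -2.59 ± 0.46. Igf1, the hormone through which growth hormone acts on growth, was at 5.28, 5.90, 6.55 and 5.40 in MCD-agonist livers, against 6.84, 6.81, 7.14 and 7.0 in standard-agonist livers. It fell by 1.16 on the log2 scale (adjusted p = 0.00426), in 4 of 5 probes, and did not pass with the 8 arrays fitted alone (adjusted p = 0.0566). Stat5b itself changed by -0.75 ± 0.21 (adjusted p = 0.0158) without overlap, a call lost without MCD-agonist array 4 (0.067) and standard-agonist array 1 (0.0542) (adjusted p in brackets) and with the 8 arrays alone (adjusted p = 0.132). Igfbp2, an IGF binding protein that fasting raises, rose by 1.53 ± 0.35. The 8 arrays alone gave 1 rise and 3 falls for the list. Without MCD-agonist array 1, 2 or 3 or standard-agonist array 1 or 3 it gave 1 rise. Igf1 did not pass with probes averaged (adjusted p = 0.0951).

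Targets of the xenobiotic receptors CAR and PXR gave 7 rises and 2 falls among 19, with a median change of 0.48, or 0.26 with normexp correction and 0.25 with the matched table. Beside Cyp2b10, the receptor gene Nr1i3 (CAR) itself was at 4.87, 5.28, 5.51 and 5.15 in MCD-agonist livers, against 3.13, 4.20, 3.58 and 3.87 in standard-agonist livers. It rose by 1.51 ± 0.30 (adjusted p = 0.00111), without overlap. Por, the reductase that supplies electrons to all microsomal P450s, rose by 1.53 ± 0.29, the export pumps Abcb1a and Abcc4 by 2.59 ± 0.55 and 1.49 ± 0.40, and the retinaldehyde dehydrogenase Aldh1a1 by 1.05 ± 0.21, which did not pass with the 8 arrays alone (adjusted p = 0.0619). Of 25 targets of the oxidative stress regulator NRF2, 3 rose and 1 fell, with a median of -0.08. Nqo1, a quinone reductase, rose by 2.31 ± 0.43 and the glutathione transferase Gsta2 by 2.54 ± 0.57, while Hmox1, heme oxygenase, changed by -1.66 ± 0.52 (adjusted p = 0.0289). The call of Hmox1 was lost when any 1 of the following was left out, with the adjusted p in brackets: MCD-agonist array 1 (0.0942), MCD-agonist array 4 (0.0578), standard-agonist array 1 (0.113) and standard-agonist array 2 (0.0756). Fitted on the 8 arrays alone it had an adjusted p of 0.0511. Without standard-agonist array 3, 2 NRF2 targets fell, and without MCD-agonist array 4, 1 target of CAR and PXR did. Abcc4 did not pass with normexp correction (adjusted p = 0.0539). Hmox1 did not pass with the matched table (adjusted p = 0.0623).

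Methionine and choline metabolism gave 5 rises and 2 falls among 29 genes, with a median of 0.15. Mat2a, which encodes the methionine adenosyltransferase that adult hepatocytes normally keep low, was at 6.47, 6.37, 6.69 and 6.10 in MCD-agonist livers, against 4.46, 4.35, 4.50 and 4.84 in standard-agonist livers. The groups did not overlap (1.87 ± 0.29, adjusted p = 5.8e-05). Chka, the first enzyme of phosphatidylcholine synthesis from choline, changed by -1.29 ± 0.25 (adjusted p = 0.000773), and Pemt, which makes phosphatidylcholine by methylation instead, by 0.89 ± 0.29 (adjusted p = 0.0361). Mtrr, which keeps methionine synthase active, rose by 1.59 ± 0.33 and was well above background on 2 of 4 standard-agonist arrays. The liver form Mat1a (0.71 ± 0.31) and Gnmt (0.10 ± 0.25), which uses up S-adenosylmethionine, did not pass. The call of Pemt was lost without MCD-agonist array 1 (0.134), MCD-agonist array 3 (0.0652), standard-agonist array 2 (0.0542), standard-agonist array 3 (0.0703) and standard-agonist array 4 (0.106) (adjusted p in brackets) and with the 8 arrays alone (adjusted p = 0.102). Without MCD-agonist array 1 or standard-agonist array 2 or 4, 2 members rose, without MCD-agonist array 4 or standard-agonist array 1, 3 did, and without MCD-agonist array 3, 5 members fell. The 8 arrays alone gave 2 rises and 2 falls. Pemt did not pass with median scaling, quantile scaling, dim probes kept, the 4 groups without hepatectomy fitted alone or array weights (adjusted p between 0.0658 and 0.113).

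The integrated stress response, in which amino acid shortage acts through ATF4, gave 4 rises and 2 falls among 24 genes, with a median of 0.35, or 0.20 with normexp correction, 0.19 with median scaling and 0.23 with the matched table. Trib3, a pseudokinase induced by ATF4, was at 6.95, 6.24, 3.46 and 4.74 in MCD-agonist livers, against 1.06, 1.23, 0.45 and 1.62 in standard-agonist livers. All MCD-agonist livers were above all standard-agonist livers, and they spread over more than 3 log2 units (4.26 ± 0.61, adjusted p = 2.78e-05). The serine synthesis gene Psat1 rose by 3.96 ± 0.61, or by 2.44 with normexp correction. Asns, asparagine synthetase, was at 4.76, 4.68, 2.81 and 4.56 in MCD-agonist livers, against 3.05, 2.76, 2.57 and 2.08 in standard-agonist livers (1.59 ± 0.41, adjusted p = 0.00825). MCD-agonist array 3 lay among the standard-agonist arrays, as it did for Psat1. Asns did not pass with the 8 arrays alone (adjusted p = 0.0571). Nupr1, a stress-induced nuclear protein, changed by 1.86 ± 0.61 (adjusted p = 0.0362), a call lost without MCD-agonist array 1 (0.0595), MCD-agonist array 2 (0.111), MCD-agonist array 4 (0.0855), standard-agonist array 1 (0.099), standard-agonist array 3 (0.0749) and standard-agonist array 4 (0.0513) (adjusted p in brackets). Gdf15, a hormone that lowers appetite, went the other way at 1.74, 2.62, -0.05 and 2.40 in MCD-agonist livers, against 4.49, 4.15, 3.39 and 3.86 in standard-agonist livers (-2.29 ± 0.55, adjusted p = 0.00465). Chac1, which degrades glutathione and is likewise induced by ATF4, changed by -1.62 ± 0.45 (adjusted p = 0.0148) and lost its call without MCD-agonist array 2 (0.0558) (adjusted p in brackets). Without that array 3 members of the list rose and 1 fell. Fgf21, the hepatokine of protein restriction, spread from -2.59 to 2.95 in standard-agonist livers and did not pass (1.25 ± 0.90). Of 12 tRNA synthetases, also ATF4 targets, 1 rose and 0 fell, and without MCD-agonist array 3, 3 rose. Nupr1 did not pass with normexp correction, median scaling, dim probes kept, array weights or the matched table (adjusted p between 0.0605 and 0.142). Chac1 did not pass with array weights (adjusted p = 0.0583).

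Heat shock chaperones, which refold proteins under the transcription factor HSF1, gave 0 rises and 10 falls among 23 genes, with a median of -0.76. Hspa1a, the inducible HSP70, was at -2.66, -3.24, -5.32 and -3.18 in MCD-agonist livers, against 1.5, 1.60, 0.25 and 0.78 in standard-agonist livers. It was well above background on 1 of 4 MCD-agonist arrays and on all standard-agonist arrays (-4.63 ± 0.52, adjusted p = 8.36e-07), and its near-identical copy Hspa1b has no probe of its own among the genes tested. With normexp correction the log2 change of Hspa1a was -2.46. Hspb1, the small chaperone HSP27, was at 2.77, 3.36, 3.20 and 2.79 in MCD-agonist livers, against 5.09, 5.20, 5.72 and 6.22 in standard-agonist livers, with no overlap (-2.53 ± 0.49, adjusted p = 0.000763). Falls were also found for Chordc1 (-1.83 ± 0.24), Hsp90aa1 (-1.61 ± 0.29), the inducible HSP90, and the HSP40 co-chaperones Dnajb1 (-1.78 ± 0.28) and Dnaja1 (-1.14 ± 0.21). Dnaja1 was the tightest of them, between 5.70 and 6.04 in MCD-agonist livers and between 6.96 and 7.11 in standard-agonist livers. The upstream sequences of Hspa1a and Hspb1 are shown because both fell and both hold the inverted repeat that HSF1 recognises, GAANNTTC or TTCNNGAA, set in capitals. Each is the 250 bases before the start of the gene, 5′ to 3′ on the gene's strand, from RefSeq on GRCm38.p6.
Hspa1a (chr17:34972157-34972406, - strand): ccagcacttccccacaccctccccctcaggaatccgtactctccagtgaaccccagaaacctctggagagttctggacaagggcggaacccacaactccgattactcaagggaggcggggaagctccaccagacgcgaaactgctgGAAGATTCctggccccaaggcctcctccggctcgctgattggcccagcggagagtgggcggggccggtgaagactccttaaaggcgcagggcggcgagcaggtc
Hspb1 (chr5:135887669-135887918, + strand): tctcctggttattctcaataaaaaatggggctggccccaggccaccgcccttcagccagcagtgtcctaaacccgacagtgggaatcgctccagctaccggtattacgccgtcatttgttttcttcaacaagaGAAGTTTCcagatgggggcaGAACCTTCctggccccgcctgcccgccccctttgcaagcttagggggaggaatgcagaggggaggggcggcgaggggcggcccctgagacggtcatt
The match in Hspa1a begins 104 bases before the start and those in Hspb1 117 and 97 bases before it. On either strand of the same window, 12.8% of 32851 mouse promoters hold such a match, as did 4 of the 9 fallen heat shock genes that have a promoter in the table and 8 of the 18 tested ones. A match of letters is a description and not a bound site.

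ER chaperones, which fold secreted proteins and answer to ATF6 and XBP1, gave 0 rises and 7 falls among 23 genes, with a median of -0.62. Sdf2l1, an ER co-chaperone, was at 1.21, 1.43, 1.38 and 1.5 in MCD-agonist livers, against 4.62, 3.68, 5.99 and 4.32 in standard-agonist livers. MCD-agonist livers were close together and below all standard-agonist livers (-3.28 ± 0.42, adjusted p = 5.68e-06). Creld2, a disulfide isomerase of the ER, fell by 2.12 on the log2 scale, and the isomerase Pdia3 by 1.24, with standard-agonist array 3 the highest in all 3. Xbp1, the transcription factor that IRE1 activates, changed by -1.10 ± 0.34 (adjusted p = 0.0262) with standard-agonist array 4 missing as an outlier spot. Its call was lost without MCD-agonist array 1 (0.058), MCD-agonist array 2 (0.0756), standard-agonist array 1 (0.107) and standard-agonist array 3 (0.0662) and with the 8 arrays alone (adjusted p = 0.0724). Without standard-agonist array 3, 3 members of the list fell, without standard-agonist array 1, 4 did, and with the 8 arrays alone 3. The Creld2 upstream region is shown for the ER stress element (CCAAT and CCACG with 9 bases between them), which ATF6 uses together with NF-Y, found here on the opposite strand and set in capitals. Xbp1 did not pass with the 4 groups without hepatectomy fitted alone (adjusted p = 0.0601).
Creld2 (chr15:88819396-88819645, + strand): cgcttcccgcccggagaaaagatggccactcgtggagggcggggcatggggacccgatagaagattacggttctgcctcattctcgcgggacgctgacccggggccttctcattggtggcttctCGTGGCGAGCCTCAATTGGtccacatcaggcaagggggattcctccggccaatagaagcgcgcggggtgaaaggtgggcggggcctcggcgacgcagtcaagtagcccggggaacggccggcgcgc
The match begins 126 bases before the start. It is rare, in 0.113% of all promoters, and stood in 8 of 20 tested ER chaperone promoters and in 3 of the 6 of fallen members.

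Immediate early genes, switched on within minutes by growth factors, stress or cAMP, gave 0 rises and 11 falls among 26, with a median of -1.02. That median was -0.42 with normexp correction (10 falls) and -0.51 with the matched table (8 falls). Fos, a subunit of AP-1 (mm9 chromosome 12, 86817900 to 86817959), was at -3.19, -4.46, -4.54 and -4.05 in MCD-agonist livers, against 1.23, 1.93, 1.43 and 0.00 in standard-agonist livers. It was well above background on 1 of 4 MCD-agonist arrays, and the groups did not overlap (-5.21 ± 0.61, adjusted p = 1.62e-06). With normexp correction the log2 change of Fos was -2.87. Nr4a1, a nuclear receptor that glucagon induces in hepatocytes, was at -0.16, 0.19, 3.03 and 0.88 in MCD-agonist livers, against 4.30, 3.35, 5.55 and 3.37 in standard-agonist livers. MCD-agonist array 3 was highest in its group and still below every standard-agonist array (-3.16 ± 0.64, adjusted p = 0.00112). Other falls were Fosl2 (-2.04 ± 0.36) and Junb (-2.03 ± 0.42), further AP-1 subunits, and Dusp1 (-1.95 ± 0.41), a phosphatase of MAP kinases. Egr1 changed by -1.80 ± 0.49 (adjusted p = 0.0118), a call lost without standard-agonist array 1 (0.0507) (adjusted p in brackets). The cAMP-responsive repressor Crem also fell, by 1.61 on the log2 scale. On the 8 arrays alone 8 members fell. Egr1 did not pass with array weights (adjusted p = 0.101).

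Clock genes were shifted, with the repressors and outputs of the loop higher and its activators Arntl and Clock lower in MCD-agonist livers. The core clock gave 6 rises and 2 falls among 10 genes (median 1.94) and clock outputs 7 rises and 2 falls among 10 (median 2.26), with 1 fall without any 1 of MCD-agonist arrays 1, 2 and 3 or standard-agonist arrays 1, 2 and 4. The core clock median was 1.21 with normexp correction and 1.22 with the matched table. In the liver clock, BMAL1 (Arntl) and CLOCK drive Per, Cry and Nr1d genes through E-boxes, and these feed back on them. Arntl was at -1.86, -1.16, 1.28 and -1.2 in MCD-agonist livers, against 2.15, 1.92, 2.79 and 0.71 in standard-agonist livers (-2.63 ± 0.64, adjusted p = 0.00531), and MCD-agonist array 3 overlapped with the standard-agonist range. Nr1d1, the REV-ERB alpha repressor of Arntl, was at 2.34, 2.05, 2.53 and 2.42 in MCD-agonist livers, against -2.72, 0.16, -0.91 and 1.38 in standard-agonist livers (2.85 ± 0.47, adjusted p = 0.000143). MCD-agonist livers were tight and above a wide standard-agonist group. Per2, Per3 and Cry2, the repressors of the loop, rose by 2.70 ± 0.53, 3.07 ± 0.59 and 1.98 ± 0.36, and the REV-ERB beta gene Nr1d2 by 1.90 ± 0.40. Cry2 rests on 3 MCD-agonist arrays, and Per3 was not well above background on any standard-agonist array (at least 5.65-fold higher). Per3 did not pass with the matched table (adjusted p = 0.0639), where its log2 change was 0.67, less than the bound of 5.65-fold.

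Dbp, a D-box activator that peaks late in the day in mouse liver (mm9 chromosome 7, 52965322 to 52965381), was at 7.48, 7.19, 7.03 and 6.95 in MCD-agonist livers, against 0.30, 0.28, 0.56 and 4.79 in standard-agonist livers. MCD-agonist livers were uniform, and standard-agonist array 4 stood more than 4 log2 units above the other 3 of its group (5.68 ± 0.83, adjusted p = 3.81e-05). The same array was also the highest of its group for Usp2, Tef, Nr1d1 and Cry2 and the lowest for Arntl and Nfil3. The related activators Hlf and Tef rose by 2.18 ± 0.25 and 2.50 ± 0.45, and the ubiquitin protease Usp2 by 4.70 ± 0.75. Nfil3, which represses through the D-box, was at 1.39, 1.08, 2.69 and 0.16 in MCD-agonist livers, against 5.33, 4.87, 4.58 and 2.68 in standard-agonist livers (-3.04 ± 0.47, adjusted p = 6.73e-05), with MCD-agonist array 3 just above standard-agonist array 4. Ciart, a repressor of BMAL1, was not well above background on any standard-agonist array and at least 33.6-fold higher in MCD-agonist livers, with levels of 0.00, -0.50, 0.46 and 0.71 in MCD-agonist livers, against -5.66, -5.36, -6.16 and -5.43 in standard-agonist livers. The upstream regions of Ciart and Per3 are shown, with the E-box CACGTG in Ciart and the D-box TTATGTAA in Per3 in capitals.
Ciart (chr3:95882229-95882478, - strand): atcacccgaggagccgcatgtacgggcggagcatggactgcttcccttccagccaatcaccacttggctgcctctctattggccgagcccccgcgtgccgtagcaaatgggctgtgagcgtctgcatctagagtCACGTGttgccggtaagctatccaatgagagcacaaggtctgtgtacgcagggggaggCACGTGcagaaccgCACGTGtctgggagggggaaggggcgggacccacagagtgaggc
Per3 (chr4:151044666-151044915, - strand): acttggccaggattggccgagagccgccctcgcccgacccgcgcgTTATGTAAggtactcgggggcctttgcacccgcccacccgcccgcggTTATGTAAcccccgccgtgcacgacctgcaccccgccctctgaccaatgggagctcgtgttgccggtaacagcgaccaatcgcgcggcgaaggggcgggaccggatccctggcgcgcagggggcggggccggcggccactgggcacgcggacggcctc
Ciart holds 3 E-boxes, beginning 116, 58 and 44 bases before its start, and Per3 2 D-boxes, beginning 205 and 158 bases before it. An E-box was present in 6.02% of all promoters, in 1 of 7 changed core clock genes with a promoter in the table and in 3 of 8 changed clock outputs. A D-box was present in 0.819% of all promoters, in 1 of 7 changed core clock genes and in 0 of 8 changed clock outputs.

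Lipogenesis gave 0 rises and 5 falls among 23 genes (median -0.35), cholesterol synthesis 0 rises and 1 fall among 25 (median -0.49), fatty acid oxidation 4 rises and 0 falls among 35 (median 0.03) and lipid uptake and droplets 6 rises and 3 falls among 29 (median 0.15). Scd1, which makes monounsaturated fatty acids, was at 4.33, 2.81, 1.59 and 3.93 in MCD-agonist livers, against 7.05, 6.70 and 9.08 in standard-agonist livers, with 1 standard-agonist array missing from the fit because its spot was an outlier. The groups were more than 2 log2 units apart (-4.45 ± 0.57, adjusted p = 7.54e-06). Elovl6, the elongase beside it, changed by -2.36 ± 0.58 (adjusted p = 0.00573) with overlap and did not pass with the 8 arrays alone (adjusted p = 0.0595), and Acss2, which activates acetate, fell by 1.88 on the log2 scale, and did not pass with normexp correction (adjusted p = 0.0646). Fasn, fatty acid synthase, was at 6.39, 3.00, 1.48 and 3.14 in MCD-agonist livers, against 4.23, 3.01, 2.03 and 4.76 in standard-agonist livers. MCD-agonist array 1 was the highest of all 8, and the gene did not pass (-0.01 ± 0.80). Its regulator Srebf1 (0.67 ± 0.36) did not pass either. The single fall of cholesterol synthesis was Tm7sf2, a sterol reductase (-2.24 ± 0.40), and without MCD-agonist array 3 that list gave 1 rise and 2 falls. Without MCD-agonist array 1 or standard-agonist array 2 it gave 2 falls. Without standard-agonist array 4 lipogenesis gave 1 rise and 3 falls, without MCD-agonist array 2, 1 rise and 4 falls, and with the 8 arrays alone 0 rises and 2 falls.

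Cidec, which fuses lipid droplets, was at 1.56, 2.08, 0.32 and 1.28 in MCD-agonist livers, against -2.31, -2.19, -3.17 and -1.69 in standard-agonist livers. It rose without overlap (3.65 ± 0.64, adjusted p = 0.000297). Vldlr, a receptor that takes up triglyceride-rich particles, rose by 3.48 ± 0.46, and the fatty acid carrier Cd36 by 2.48 ± 0.43, both without overlap. Plin2, the coat protein of droplets in fatty liver, was between 6.36 and 7.49 in MCD-agonist livers and between 6.58 and 7.68 in standard-agonist livers and did not pass (-0.30 ± 0.38). Lipc, hepatic lipase, fell by 1.53 on the log2 scale. Of the oxidation genes, the mitochondrial thioesterase Acot2 was at -0.26, 0.69, -2.27 and 0.72 in MCD-agonist livers, against -3.65, -5.29, -5.94 and -3.03 in standard-agonist livers (4.20 ± 0.56, adjusted p = 1.02e-05) and Pdk4, the kinase that spares glucose by blocking pyruvate dehydrogenase, rose by 1.46 ± 0.39. Acot4, a peroxisomal thioesterase, rose by 1.79 ± 0.31 with standard-agonist array 4 inside the MCD-agonist range. On the 8 arrays alone, 3 uptake and droplet genes rose and 1 fell, and without standard-agonist array 4, 6 rose and 1 fell. Fatty acid oxidation gave 5 rises and 1 fall without standard-agonist array 3. Pdk4 did not pass with normexp correction or the matched table (adjusted p between 0.0611 and 0.0613).

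Lipoprotein genes gave 1 rise and 2 falls among 19 (median 0.01). These small counts became 0 rises and 1 fall without MCD-agonist array 4 or standard-agonist array 4, 0 and 2 without standard-agonist array 1, 1 and 1 without MCD-agonist array 2, 2 and 2 without MCD-agonist array 3 or standard-agonist array 3, and 2 and 1 without standard-agonist array 2. Pltp, which moves phospholipid between lipoproteins, was at -0.95, -0.97, -0.80 and 0.12 in MCD-agonist livers, against 0.47, 2.05, 2.05 and 1.79 in standard-agonist livers (-2.24 ± 0.43, adjusted p = 0.000727), without overlap. Mttp, which loads triglyceride onto VLDL, changed by -0.68 ± 0.21 (adjusted p = 0.0224), a call lost without MCD-agonist array 2 (0.0505), MCD-agonist array 4 (0.0845), standard-agonist array 2 (0.0753) and standard-agonist array 4 (0.0504) (adjusted p in brackets) and with the 8 arrays alone (adjusted p = 0.17). Apoa4, an apolipoprotein that rises in fatty liver, was at 4.08, 6.41, 4.89 and 6.09 in MCD-agonist livers, against 3.30, 4.75, 4.16 and 3.69 in standard-agonist livers. The groups overlapped (1.39 ± 0.42, adjusted p = 0.0244), and the call was lost without MCD-agonist array 2 (0.112), MCD-agonist array 4 (0.0896), standard-agonist array 1 (0.0935) and standard-agonist array 4 (0.0623) and with the 8 arrays alone (adjusted p = 0.134). Mttp did not pass with normexp correction, the 4 groups without hepatectomy fitted alone, array weights or the matched table (adjusted p between 0.0504 and 0.0719). Apoa4 did not pass with normexp correction, median scaling, the 4 groups without hepatectomy fitted alone, array weights or the matched table (adjusted p between 0.0569 and 0.111).

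Bile acid genes gave 4 rises and 1 fall among 20 (median -0.04). Slco1a4, an organic anion uptake carrier, was at 3.68, 3.30, 3.86 and 2.91 in MCD-agonist livers, against 0.77, 0.56, 1.93 and 1.13 in standard-agonist livers (2.34 ± 0.35, adjusted p = 4.4e-05), the opposite direction to its neighbour Slco1a1. The sterol exporter Abcg5 rose by 1.84 ± 0.30 and the basolateral bile acid exporter Slc51b by 2.98 ± 0.67. Cyp7a1, the first enzyme of bile acid synthesis, was at 4.14, 2.77, 2.14 and 3.41 in MCD-agonist livers, against 1.30, -1.33, 0.88 and 0.80 in standard-agonist livers. The groups did not overlap (2.70 ± 0.89, adjusted p = 0.0388), but the call was lost without MCD-agonist array 1 (0.113), MCD-agonist array 2 (0.0561), MCD-agonist array 4 (0.0794), standard-agonist array 2 (0.146), standard-agonist array 3 (0.0512) and standard-agonist array 4 (0.0542) (adjusted p in brackets). Cyp27a1, of the alternative pathway, fell by 1.39 on the log2 scale. The list gave 3 rises and 2 falls without MCD-agonist array 4 or standard-agonist array 3. Cyp7a1 did not pass with normexp correction, median scaling, dim probes kept or array weights (adjusted p between 0.0523 and 0.0934).

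The receptors of the agonist did not pass. Gcgr, the glucagon receptor, was at 7.71, 8.21, 8.13 and 7.06 in MCD-agonist livers, against 8.17, 7.70, 7.88 and 7.95 in standard-agonist livers, with full overlap (-0.15 ± 0.24, adjusted p = 0.748). Glp1r was well above background on 2 MCD-agonist arrays and 1 standard-agonist array and did not pass (1.0 ± 0.48). Of 22 glucose metabolism genes 0 rose and 2 fell, the second beside Crem being Pfkfb3, a regulator of glycolysis (-2.24 ± 0.53). For Pfkfb3, standard-agonist array 3 lay inside the MCD-agonist range, and it did not pass with the 8 arrays alone (adjusted p = 0.0679). Pck1, the gluconeogenic enzyme that glucagon induces, did not pass (0.26 ± 0.34), nor did the coactivator Ppargc1a (0.57 ± 0.48). G6pc, which releases glucose, was at 7.06, 3.41, 7.47 and 4.19 in MCD-agonist livers, against 7.59, 7.86, 7.81 and 7.40 in standard-agonist livers. MCD-agonist arrays 2 and 4 were low and the other two near the standard-agonist level, and the change did not pass in the full fit (-2.13 ± 0.83, adjusted p = 0.0807). It did pass without MCD-agonist array 1 (adjusted p = 0.0459) or array 3 (adjusted p = 0.0261). Ppargc1b, the coactivator related to Ppargc1a, was at -0.24, -1.30, -0.97 and 0.32 in MCD-agonist livers, against -5.77, -5.04, -3.88 and -3.73 in standard-agonist livers, with no overlap (4.06 ± 0.54, adjusted p = 1.05e-05). It was well above background on 2 of 4 standard-agonist arrays. In amino acid catabolism and the urea cycle, 3 of 37 genes rose and 2 fell (median 0.26), among them Gpt, alanine aminotransferase, at 8.47, 7.73, 8.37 and 8.71 in MCD-agonist livers, against 6.92, 6.80, 7.07 and 6.17 in standard-agonist livers (1.58 ± 0.28, adjusted p = 0.000334). Its mitochondrial partner Gpt2 changed by 1.19 ± 0.32 (adjusted p = 0.0105) with MCD-agonist array 1 missing as an outlier spot, and did not pass with the 8 arrays alone (adjusted p = 0.0797). Without MCD-agonist array 2 or any 1 standard-agonist array, 1 member of the list fell. Glucose metabolism gave 1 rise and 2 falls without MCD-agonist array 4. Pfkfb3 did not pass with probes averaged (adjusted p = 0.0678).

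DNA replication genes gave 6 rises and 0 falls among 20 (median 0.75), cyclin D and CDK inhibitor genes 6 rises and 0 falls among 12 (median 0.40), and mitosis genes 0 rises and 0 falls among 17 (median -0.55, or -0.34 with normexp correction). With normexp correction or the matched table, 3 replication genes and 2 cyclin D and inhibitor genes rose, and the cyclin D list had medians of 0.21 and 0.19. The licensing factor Cdt1 was at 0.95, 1.89, 0.74 and 2.32 in MCD-agonist livers, against -0.62, 0.03, -0.31 and 0.57 in standard-agonist livers, without overlap (1.56 ± 0.32, adjusted p = 0.00116), and Ccne1, the cyclin of S phase entry, rose by 1.67 ± 0.36 and the helicase subunit Mcm2 by 1.55 ± 0.40. Cdkn1c, the CDK inhibitor p57, was at 1.77, 0.42, 1.27 and 1.45 in MCD-agonist livers, against -1.02, -1.14, -1.38 and -1.08 in standard-agonist livers, without overlap (2.39 ± 0.29, adjusted p = 3.13e-06). Ccnd1, cyclin D1, was at 4.62, 5.03, 2.72 and 5.30 in MCD-agonist livers, against 1.98, 1.59, 2.63 and 3.98 in standard-agonist livers (1.87 ± 0.48, adjusted p = 0.0083). MCD-agonist array 3 overlapped, and the gene did not pass with the 8 arrays alone (adjusted p = 0.0976). The proliferation marker Mki67 (-0.31 ± 0.63, with its 2 probes of opposite sign) and the mitotic genes Kif20a (-0.93 ± 0.55) and Cdc20 (-0.79 ± 0.70) did not pass. Ccnb2 did not pass (-0.92 ± 0.41, adjusted p = 0.133) except without MCD-agonist array 3 (adjusted p = 0.0415) or standard-agonist array 1 (adjusted p = 0.0361). On the 8 arrays alone 3 replication genes and 2 cyclin D and inhibitor genes rose, and without MCD-agonist array 2 the cyclin D and inhibitor list gave 3 rises. Without MCD-agonist array 1 or standard-agonist array 4 that list gave 4 rises and 1 fall, and without MCD-agonist array 3 or standard-agonist array 1, 1 mitosis gene fell. Mcm2 did not pass with normexp correction or the matched table (adjusted p between 0.0756 and 0.0999).

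**Figure D2:**
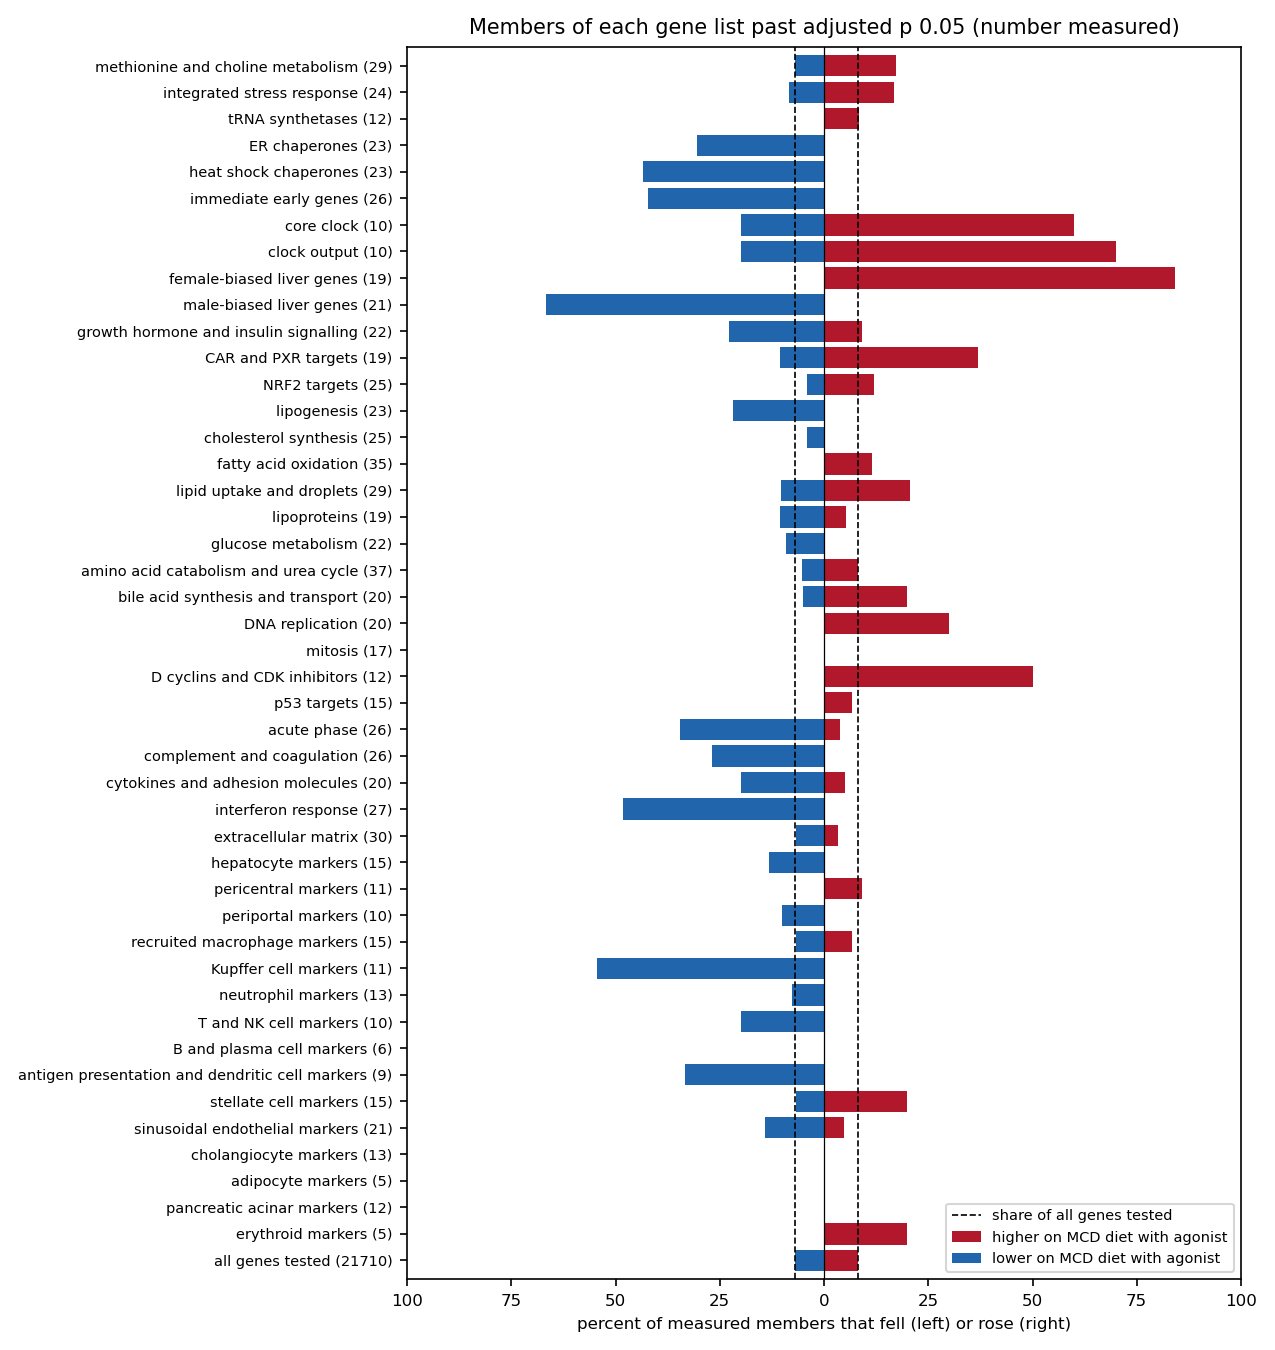
Share of measured members of each gene list that rose (right) or fell (left) in MCD diet with agonist livers against standard diet with agonist livers, with the number measured in brackets and dashed lines at the shares of all genes tested (8.1% and 7.07%). Female-biased genes, clock lists and cyclin D genes reach furthest to the right, and male-biased genes, Kupffer cell markers, interferon, heat shock and immediate early genes furthest to the left.

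Inflammatory lists gave more falls than rises in MCD-agonist livers. Acute phase genes gave 1 rise and 9 falls among 26 (median -0.35). Saa1, serum amyloid A, was at 6.39, 5.65, 4.63 and 5.81 in MCD-agonist livers, against 10.15, 9.67, 9.33 and 7.70 in standard-agonist livers. The groups did not overlap (-3.59 ± 0.77, adjusted p = 0.00193). Saa2, which shares much of its sequence, and Saa4 had changes of -3.82 ± 0.79 and -2.45 ± 0.36. Steap4, a metalloreductase induced by cytokines, was at 0.50, -0.40, -0.57 and 0.46 in MCD-agonist livers, against 5.51, 4.56, 2.71 and 2.67 in standard-agonist livers (-3.87 ± 0.55, adjusted p = 2.48e-05). Hamp2, a hepcidin gene, was the exception with 6.45, 4.89, 8.79 and 5.68 in MCD-agonist livers, against 3.47, 2.69, 3.37 and 3.62 in standard-agonist livers (3.16 ± 0.58, adjusted p = 0.000456). The iron carrier Lcn2 was at 6.16, 5.89, 6.87 and 6.48 in MCD-agonist livers, against 8.78, 7.24, 6.14 and 3.64 in standard-agonist livers and did not pass (-0.10 ± 0.99), nor did the metallothionein Mt1 (0.29 ± 0.71, with 2 probes of opposite sign). In the fit of the 8 arrays alone 4 acute phase genes fell, and without MCD-agonist array 3 or standard-agonist array 1, 2 rose.

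Complement and coagulation gave 0 rises and 7 falls among 26 (median -0.38). C8a, of the membrane attack complex, was at 4.45, 3.85, 3.50 and 3.93 in MCD-agonist livers, against 6.64, 7.06 and 6.71 in standard-agonist livers, with 1 standard-agonist array dropped as an outlier spot (-2.87 ± 0.33, adjusted p = 1.76e-06). C9, its partner, was at 1.46, 1.67, 1.32 and 1.56 in MCD-agonist livers, against 3.55, 4.29, 3.67 and 3.55 in standard-agonist livers. Both groups were tight and about 2 log2 units apart (-2.26 ± 0.40, adjusted p = 0.000327). In the fit of the 8 arrays alone 4 members fell.

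Cytokine and adhesion genes gave 1 rise and 4 falls among 20 (median -0.65). With normexp correction 2 fell (median -0.20), and the matched table gave 0 rises and 1 fall (median -0.25). Cxcl1, a chemokine for neutrophils, was at 1.2, 1.56, 0.63 and 0.61 in MCD-agonist livers, against 7.39, 6.33, 4.45 and 2.54 in standard-agonist livers. MCD-agonist livers were low and close together, and standard-agonist livers were spread widely above them (-4.18 ± 0.82, adjusted p = 0.000859). Ccl2, a chemokine for monocytes, showed the same wide standard-agonist spread, with array 4 inside the MCD-agonist range (-2.87 ± 0.97, adjusted p = 0.0421), and its call was lost without MCD-agonist array 1 (0.0779), MCD-agonist array 2 (0.0523), MCD-agonist array 3 (0.108), MCD-agonist array 4 (0.0556), standard-agonist array 1 (0.186) and standard-agonist array 2 (0.0993) (adjusted p in brackets) and with the 8 arrays alone (adjusted p = 0.0662). Ccl7, another monocyte chemokine, did not pass (-1.96 ± 1.03). Cxcl9, induced by interferon gamma, changed by -1.55 ± 0.48 (adjusted p = 0.0257), a call lost without MCD-agonist array 1 (0.0586), MCD-agonist array 2 (0.0691), standard-agonist array 1 (0.0597) and standard-agonist array 3 (0.0948). Without MCD-agonist arrays 1, 3 or 4, 2 members of the list fell, and without MCD-agonist array 2 or standard-agonist array 1, 1 did. Ccl2 did not pass with normexp correction, quantile scaling, dim probes kept, array weights or the matched table (adjusted p between 0.0558 and 0.0895). Cxcl9 did not pass with the matched table (adjusted p = 0.0581).

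Interferon response genes, an antiviral program, gave 0 rises and 13 falls among 27 (median -1.01). Bst2, which tethers virions, was at 4.87, 5.72, 5.71 and 5.65 in MCD-agonist livers, against 7.36, 7.23, 7.50 and 7.23 in standard-agonist livers. All MCD-agonist livers were below all standard-agonist livers (-1.84 ± 0.25, adjusted p = 1.13e-05). Oas2, an RNA sensor, was at -0.29, -0.38, -1.15 and -0.40 in MCD-agonist livers, against 1.35, 2.34, 1.14 and 0.90 in standard-agonist livers (-1.99 ± 0.32, adjusted p = 0.000104), and Oasl2 fell by 1.87 on the log2 scale, both without overlap. Irf9, a transcription factor of the interferon response, changed by -1.29 ± 0.29 (adjusted p = 0.00254), without overlap. Rtp4, also interferon-induced, changed by -1.31 ± 0.35 (adjusted p = 0.00982), again without overlap. Rtp4 did not pass with the 8 arrays alone (adjusted p = 0.0568). Without MCD-agonist array 3 or standard-agonist array 3, 8 members fell, without standard-agonist array 1, 7, and with the 8 arrays alone, 5. Rtp4 did not pass with the matched table (adjusted p = 0.0539).

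Markers of resident and infiltrating cells were measured in the same arrays. Kupffer cells, the resident macrophages of the sinusoids, gave 0 rises and 6 falls among 11 markers (median -1.45). Of these markers 4 fell with normexp correction (median -1.08) or the matched table (median -1.18), and 3 with array weights (median -1.28). Timd4, a phosphatidylserine receptor of resident macrophages, was at -1.71, -2.75, -2.83 and -2.79 in MCD-agonist livers, against -0.05, -0.60, -0.34 and -0.76 in standard-agonist livers (-2.08 ± 0.41, adjusted p = 0.000827), and Folr2 and Vsig4, receptors on the same cells, had changes of -1.97 ± 0.42 and -1.74 ± 0.45, and the lectin Clec4f one of -1.45 ± 0.36. None of these 4 overlapped between the groups. Adgre1, which encodes a macrophage adhesion receptor, changed by -1.87 ± 0.57 (adjusted p = 0.0248), also without overlap, and lost its call without MCD-agonist array 1 (0.0522), MCD-agonist array 4 (0.0706) and standard-agonist array 3 (0.0961) (adjusted p in brackets). Antigen presentation and dendritic cell markers gave 0 rises and 3 falls among 9 (median -1.04), among them the MHC class II gene H2-Aa at -0.18, 0.10, -0.72 and 0.67 in MCD-agonist livers, against 0.83, 0.97, 2.39 and 1.12 in standard-agonist livers. Its groups did not overlap (-1.36 ± 0.40, adjusted p = 0.0196), and the call was lost without MCD-agonist array 3 (0.07) and standard-agonist array 3 (0.0978) (adjusted p in brackets), as it was with the 8 arrays alone (adjusted p = 0.0748). Another MHC class II gene, H2-Ab1, changed by -1.39 ± 0.41 (adjusted p = 0.0219) and lost its call without standard-agonist array 3 (0.121). The invariant chain Cd74 changed by -1.2 ± 0.38 (adjusted p = 0.0302) and lost its call without MCD-agonist array 2 (0.101), MCD-agonist array 3 (0.0856), standard-agonist array 2 (0.0683), standard-agonist array 3 (0.101) and standard-agonist array 4 (0.0535). In the 8-array fit their adjusted p was 0.0852 and 0.0874. Without standard-agonist array 3, 0 members of the list fell, and without MCD-agonist array 3, 1 did. With normexp correction 1 fell (list median -0.59), and the matched table gave 0 falls (list median -0.48). In that 8-array fit 5 Kupffer markers fell and 0 of the antigen presentation list. Timd4 did not pass with normexp correction (adjusted p = 0.0539). Clec4f did not pass with normexp correction, array weights or the matched table (adjusted p between 0.0534 and 0.172). Adgre1 did not pass with the 4 groups without hepatectomy fitted alone or array weights (adjusted p between 0.0589 and 0.0635). H2-Aa did not pass with normexp correction or the matched table (adjusted p between 0.0688 and 0.108). H2-Ab1 did not pass with normexp correction or the matched table (adjusted p between 0.0727 and 0.0846). Cd74 did not pass with quantile scaling, dim probes kept, array weights or the matched table (adjusted p between 0.0536 and 0.0585).

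Recruited macrophage markers gave 1 rise and 1 fall among 15 (median -0.20). Fabp5, a fatty acid binding protein, was at 3.46, 3.56, 2.01 and 3.19 in MCD-agonist livers, against 7.62, 6.01, 6.06 and 7.37 in standard-agonist livers (-3.71 ± 0.45, adjusted p = 3.13e-06). Gpnmb, a marker of lipid-associated macrophages, was not well above background on any standard-agonist array. By the bound given for Cyp2a22 it was at least 12-fold higher in MCD-agonist livers (4.10 ± 1.38, adjusted p = 0.0425). This call was lost without MCD-agonist array 1 (0.0528), MCD-agonist array 2 (0.108), MCD-agonist array 4 (0.114), standard-agonist array 1 (0.065), standard-agonist array 2 (0.0515), standard-agonist array 3 (0.103) and standard-agonist array 4 (0.0863), and without MCD-agonist array 1, 2 recruited macrophage markers fell. Ms4a6d, a macrophage membrane protein, was well above background on 1 of 4 MCD-agonist arrays and all standard-agonist arrays. It did not pass in the full fit (-2.18 ± 0.77, adjusted p = 0.0522) but did with the 8 arrays alone (adjusted p = 0.0328). Trem2, a receptor of lipid-associated macrophages, was at 0.64, 1.57, 0.75 and 2.48 in MCD-agonist livers, against -0.08, -0.82, -1.30 and -1.43 in standard-agonist livers. The groups did not overlap, but the change did not pass in the full fit (2.27 ± 0.82, adjusted p = 0.0586). With the 8 arrays alone Trem2 passed (adjusted p = 0.0149), as did Gpnmb (adjusted p = 0.00899). Neutrophil markers gave 0 rises and 1 fall among 13 (median 0.17), that of the granule protease Prtn3 (-4.24 ± 0.68), well above background on 2 of 4 MCD-agonist arrays. Without MCD-agonist array 2 or 3 or standard-agonist array 3, 2 neutrophil markers fell. T and NK cell markers gave 0 rises and 2 falls among 10. They gave 0 falls without MCD-agonist array 4 or standard-agonist array 3 or 4 and 1 without MCD-agonist array 2 or 3. With normexp correction 0 fell, and the matched table gave 1 fall. B and plasma cell markers gave 0 and 0 among 6. The part of cell numbers in the inflammatory results was not tested. Gpnmb did not pass with normexp correction, median scaling, dim probes kept, array weights or the matched table (adjusted p between 0.051 and 0.322). Its log2 change was 1.45 with normexp correction and 1.49 with the matched table, less than the 12-fold bound.

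Extracellular matrix genes gave 1 rise and 2 falls among 30 (median 0.05). Col3a1, a fibrillar collagen, was at 1.07, 0.78, 0.74 and 1.30 in MCD-agonist livers, against 2.42, 1.70, 2.12 and 2.73 in standard-agonist livers (-1.27 ± 0.38, adjusted p = 0.0223), and lost its call without MCD-agonist array 2 (0.054), MCD-agonist array 3 (0.0514), standard-agonist array 1 (0.0571) and standard-agonist array 4 (0.0723) (adjusted p in brackets). Thbs1, a matrix glycoprotein, changed by -1.85 ± 0.63 (adjusted p = 0.0436) and was well above background on 1 of 4 MCD-agonist arrays. It lost its call without MCD-agonist array 2 (0.131), MCD-agonist array 3 (0.0727), MCD-agonist array 4 (0.0545), standard-agonist array 1 (0.184), standard-agonist array 2 (0.0748) and standard-agonist array 4 (0.0556) and with the 8 arrays alone (adjusted p = 0.0636). Without MCD-agonist array 2 or 3 or standard-agonist array 1 or 4, 0 matrix genes fell, and without MCD-agonist array 4, 1 did. Without MCD-agonist array 1 or 2 or standard-agonist array 1 or 3, 0 rose, and without MCD-agonist array 3, 2 did. Col1a1 (-0.61 ± 0.64) and Timp1 (0.61 ± 0.89) did not pass. Stellate cell markers gave 3 rises and 1 fall among 15, among them Pdgfra (1.0 ± 0.26) and the pericyte gene Rgs5 (1.15 ± 0.29), which did not pass with the 8 arrays alone (adjusted p = 0.0787 and 0.0563). Sinusoidal endothelial markers gave 1 rise and 3 falls among 21, with the lectin Clec4g (-1.02 ± 0.28) and the receptor Gpr182 (-1.06 ± 0.24) lower in every MCD-agonist liver, although neither passed with the 8 arrays alone (adjusted p = 0.0557 and 0.0608). Without MCD-agonist array 1 or 2 or standard-agonist array 1, 2 or 3, 0 stellate markers fell, and without MCD-agonist array 1, 3 or 4 or standard-agonist array 1 or 2, 0 endothelial markers rose. Without MCD-agonist array 2 or standard-agonist array 4, 2 endothelial markers rose, and without MCD-agonist array 3 or standard-agonist array 2 or 4, 2 of them fell. Neither cholangiocyte nor adipocyte markers gave a rise or a fall (13 and 5 measured). Pancreatic acinar markers gave 0 and 0 among 12, with 2 rises without MCD-agonist array 3 and 1 fall without MCD-agonist array 4 or standard-agonist array 4. Outside these lists, 2 further genes were among the 12 largest falls without overlap. Tff3, a trefoil peptide, was at 0.54, -0.03, -1.41 and -0.16 in MCD-agonist livers, against 4.74, 4.15, 3.01 and 3.71 in standard-agonist livers (-4.17 ± 0.58, adjusted p = 1.95e-05). Atp11a, a phospholipid flippase, was at 0.15, -1.22, -1.10 and -0.57 in MCD-agonist livers, against 4.32, 3.50, 3.21 and 2.67 in standard-agonist livers (-4.11 ± 0.34, adjusted p = 3.82e-09). Neither overlapped. Col3a1 did not pass with array weights or the matched table (adjusted p between 0.0551 and 0.0621). Thbs1 did not pass with normexp correction, dim probes kept, array weights or the matched table (adjusted p between 0.0507 and 0.672). Rgs5 did not pass with median scaling (adjusted p = 0.0506). Clec4g did not pass with normexp correction, array weights or the matched table (adjusted p between 0.0815 and 0.199).

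To ask whether the diet change itself differed with the agonist, the contrast was set against MCD diet minus standard diet in livers without agonist, which share no array with it. The difference of the 2 changes passed in 2408 genes (11.1%), positive in 1336 (6.15%) and negative in 1072 (4.94%). That split depends on scaling. Median scaling gave 262 positive and 2462 negative genes, quantile normalization 986 and 1279, and normexp background correction 2408 and 1107, with the median over all genes at 0.18 as reported, -0.35 with median scaling and -0.01 with quantile normalization. The 2 contrasts lie on 2 slides, and both set row 2 against row 1. Group levels and diet changes without agonist below are by the scanner files' labels, and only the difference is the same under both labellings.

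Many resident macrophage, interferon, chemokine and mitosis genes had a more negative diet change under the agonist than without it. Vsig4 was at 2.93, 3.13, 1.82 and 2.32 in MCD-agonist livers, 5.28, 4.10, 3.77 and 4.0 in standard-agonist livers, 4.93, 3.21, 5.03 and 4.75 in MCD diet livers and 1.47, 2.66, 2.21 and 2.37 in standard diet livers. The difference of the diet changes was -4.04 ± 0.63 (adjusted p = 0.000393). Of 11 Kupffer markers 10 had a negative difference that passed, and 0 a positive one, with a median diet change of 1.34 without agonist. Interferon genes gave 0 positive and 13 negative differences among 27 (median diet change without agonist 0.81), cytokine and adhesion genes 0 and 11 among 20 (1.22), antigen presentation markers 0 and 8 among 9 (1.71) and mitosis genes 0 and 12 among 17 (2.62).

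Asns, an amino acid response gene, had a smaller diet change under the agonist by the scanner files' labels. Asns was at 4.76, 4.68, 2.81 and 4.56 in MCD-agonist livers, 3.05, 2.76, 2.57 and 2.08 in standard-agonist livers, 4.78, 4.74, 5.32 and 5.45 in MCD diet livers and -1.17, -0.12, 0.03 and 0.39 in standard diet livers. The mean was high in MCD-agonist and MCD diet livers, intermediate in standard-agonist livers and low in standard diet livers, and the difference was -3.70 ± 0.58 (adjusted p = 0.000381). Among the integrated stress response genes 1 difference was positive and 6 were negative, with a median diet change of 1.37 without agonist.

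In the other direction, Ppargc1b was at -0.24, -1.30, -0.97 and 0.32 in MCD-agonist livers, -5.77, -5.04, -3.88 and -3.73 in standard-agonist livers, -1.49, -3.23, -1.37 and -1.10 in MCD diet livers and 0.73, -1.43, -1.17 and -2.05 in standard diet livers, the standard-agonist livers being the low group (difference 4.87 ± 0.77, adjusted p = 0.000423). Nr1d1 was likewise lowest in standard-agonist livers (difference 4.18 ± 0.66). Targets of CAR and PXR gave 5 positive and 0 negative differences among 19, and amino acid catabolism and urea cycle genes 7 and 0 among 37 (median diet change without agonist -0.66). Differences per list, here and above, were counted at the reported scaling only. Over all genes median scaling gave 262 positive and 2462 negative differences, against 1336 and 1072 as reported.

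**Figure D3:**
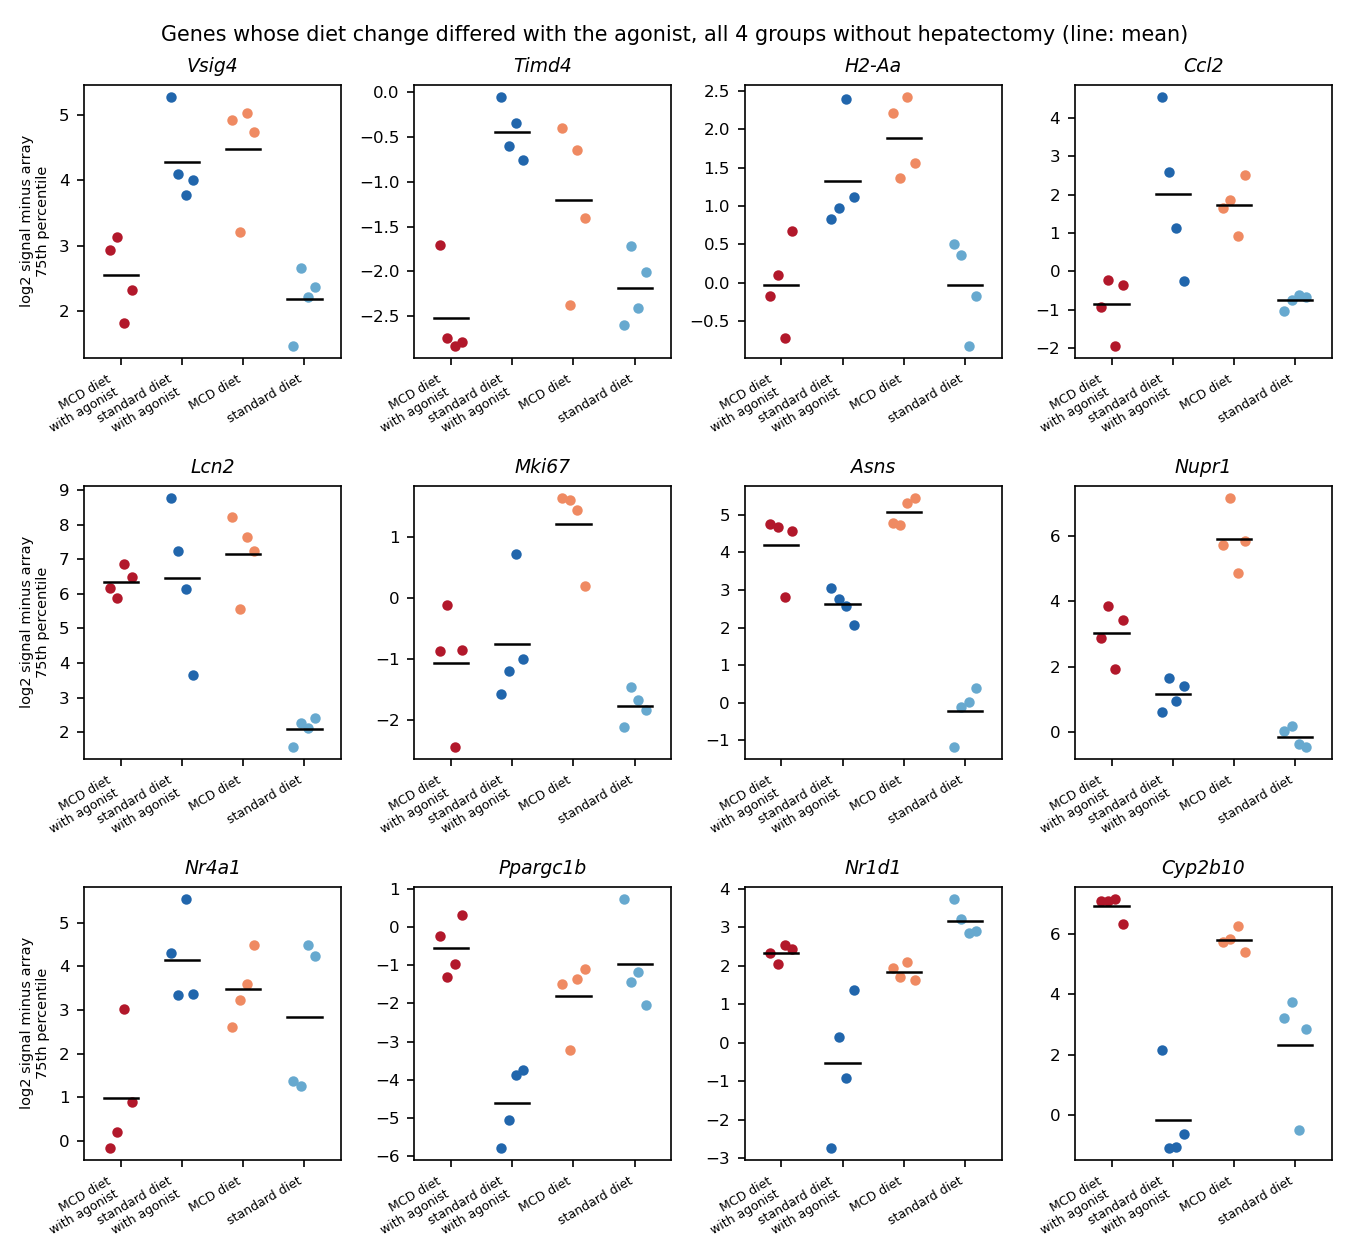
Levels of 12 genes on each array in the 4 groups without hepatectomy, in the order MCD diet with agonist, standard diet with agonist, MCD diet, standard diet, as log2 signal minus the array's 75th percentile with lines at group means. Groups are named by the scanner files' labels. Each gene shown has a difference of diet changes that passed, negative for Vsig4 (-4.04) and Asns (-3.70) and positive for Ppargc1b (4.87) and Nr1d1 (4.18).

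**Figure D4:**
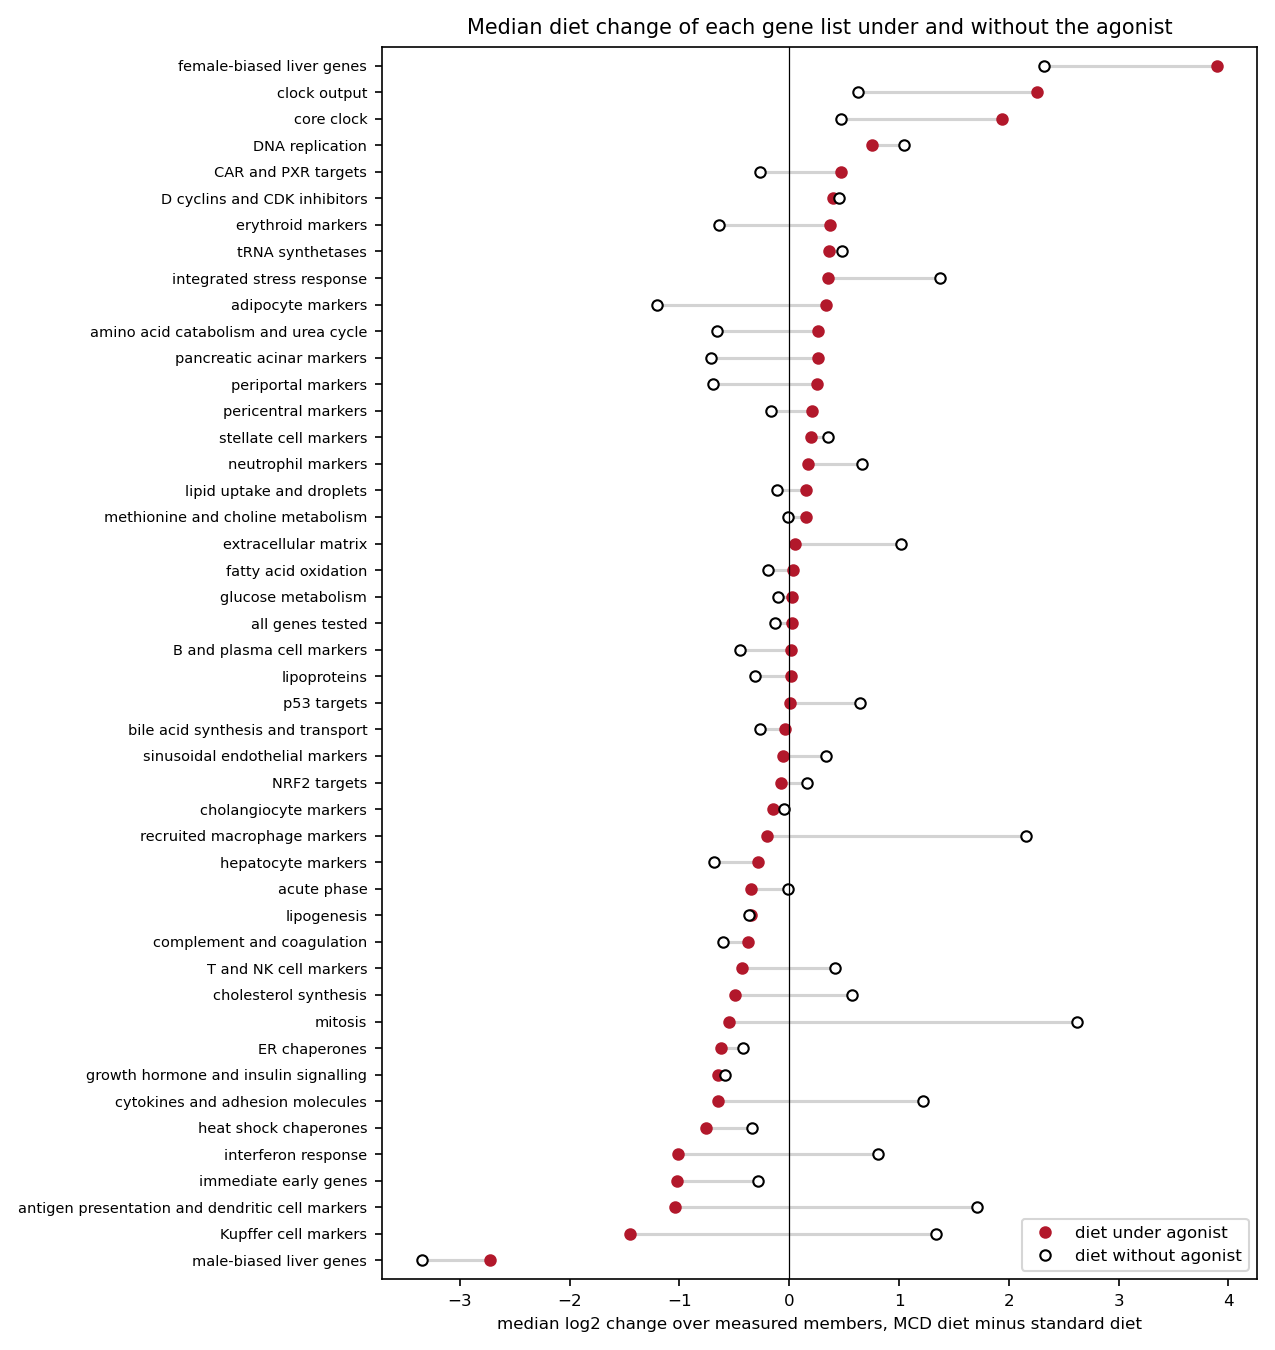
Median log2 change over the measured members of each gene list, MCD diet minus standard diet, under the agonist (filled) and without it (open), by the scanner files' labels. Female-biased genes lie furthest right under the agonist (3.90), and mitosis genes show the widest gap between the 2 conditions (-0.55 under the agonist, 2.62 without it).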

How the data were processed

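RNA of each liver was labelled with Cy3 and hybridised to a one-colour array, and intensity per spot was read by the authors with Feature Extraction 10.7.3.1, per the file headers, which give probe positions on mm9. From the deposited processed intensity, the log2 signal minus the array's 75th percentile was taken. Control spots and 5010 outlier spots (0.264%) were left out. A probe was kept if some group had it well above background on each of its 4 arrays (30139 probes), and the brightest probe stood for a gene (21710 genes, 5890 with several probes). Names were updated through RefSeq tables for 15222 genes, and 6488 keep the file's name. One limma 3.58.1 fit (R 4.3.3) held 8 groups and 32 arrays, with eBayes and Benjamini-Hochberg adjustment, and the number of arrays limits its precision. The deposited log2 table of the authors served as an alternative only, since 16 of its 32 columns matched an array of another group. Its scale was log2, and its values were set against the arrays to find the exchange.

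The comparison, its gene lists and the named genes were chosen with earlier results of these data known. Named genes were the 12 largest rises and 12 largest falls without overlap, up to 6 members of each list with the smallest adjusted p, a set of liver genes of interest, and the 6 largest differences of diet change in each direction. Not every gene the rule allows is printed: 157 genes were followed through all settings, and some genes are not reported here. A narrower set of those genes, drawn up after their stability had been seen, was discarded; the 22 genes it had left out are printed with the calls they lose. Livers are separate samples by their labels. The p-values of the full fit rest on the spread within all 8 groups, those after hepatectomy included, and not on the livers compared alone. With the 2 groups compared fitted alone, 23 of the 157 genes lost their call and 2 gained one. In that fit the adjusted p was smaller for Slco1a1 (0.000275) and Elovl3 (0.000494). Alternatives were normexp correction (offset 50), array median and quantile scaling, keeping dim probes, averaging a gene's probes, keeping outlier spots, fewer groups, a replicate block, array weights, a variance trend, the deposited table and each array left out. Same-numbered livers were not taken as pairs, because not every correlation of their deviations was over 0.1 (0.111, 0.128, 0.175 and 0.081). The correlations of livers with different numbers were all lower, between -0.161 and 0.073, so a shared effect of liver number or column is not excluded. Same-numbered arrays also lay in the same slide column, so liver number and column cannot be told apart.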

Additional observations from a re-analysis of the deposited data

Results flagged for a closer look

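In a group of 4 arrays, an array was taken to stand apart when its gap to the nearest other array, divided by the range of the group, was above Dixon's critical value for 4 values, which chance passes in about 1 in 20 groups. Of the 308 groups with a value on all 4 arrays examined for 157 genes, 21 held such an array (6.82%). A high MCD-agonist array stood apart for Cyp2b9 (3.60), Timd4 (-1.71), Cyp2a4 (8.55) and Pltp (0.12), each given as the log2 level of that array. A low MCD-agonist array stood apart for Cyp2b10 (6.32), Psat1 (-1.51), Asns (2.81), Chordc1 (1.08), Bst2 (4.87), Oas2 (-1.15), Ms4a6d (-6.14) and Cspg5 (-5.40), each given as the log2 level of that array. A high standard-agonist array stood apart for Cyp2b10 (2.15), Dbp (4.79), Usp2 (-0.46), C9 (4.29), Rgs5 (0.42) and Acot4 (1.36), each given as the log2 level of that array. A low standard-agonist array stood apart for Per3 (-6.06), Pltp (0.47) and Mtrr (-5.96), each given as the log2 level of that array. 

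The diet change under the agonist differed from that without it, by the interaction term of the limma fit, for 62 of the 157 genes, with positive differences for 15 and negative ones for 47. The background over all genes tested was 6.15% positive and 4.94% negative. Some of the 157 genes were named for the size of this difference or of the diet change under the agonist. Their count can therefore not be read as an excess over that background. Positive log2 differences were found for Cyp2b9 (2.77), Cyp2b10 (3.59), Cyp4a14 (3.04), Acot3 (2.58), Igfbp2 (2.22), Nr1i3 (2.10), Aldh1a1 (1.08) and Gnmt (1.15). Further positive differences were found for Dbp (4.45), Hlf (2.46), Nr1d1 (4.18), Srebf1 (2.35), Abcg5 (1.71), Ppargc1b (4.87) and Gpt (1.59). Among immune, acute phase and macrophage genes, negative differences were found for Steap4 (-4.22), Saa2 (-4.12), Saa1 (-3.70), Lcn2 (-5.18), Cxcl1 (-4.43), Ccl2 (-5.37), Cxcl9 (-2.26), Ccl7 (-5.24), Oas2 (-2.24), Oasl2 (-3.27), Irf9 (-1.51), Rtp4 (-1.89), Timd4 (-3.06), Folr2 (-2.93), Vsig4 (-4.04), Clec4f (-2.73), Adgre1 (-3.44), Ms4a6d (-5.32), H2-Aa (-3.28), H2-Ab1 (-3.03), Cd74 (-2.14) and Prtn3 (-4.25). Among stress and immediate early genes they were found for Asns (-3.70), Nupr1 (-4.17), Gdf15 (-2.37), Hspa1a (-2.51), Chordc1 (-1.25), Dnajb1 (-1.37), Dnaja1 (-0.93), Fos (-3.38), Fosl2 (-2.36), Nr4a1 (-3.79), Hmox1 (-2.96), Mt1 (-3.23) and Socs3 (-2.13). Among cell cycle, matrix and endothelial genes they were found for Mki67 (-3.30), Ccnb2 (-3.05), Kif20a (-3.99), Cdc20 (-4.45), Thbs1 (-3.55), Col3a1 (-2.24) and Clec4g (-1.2). The remaining negative differences were those of Cyp3a44 (-4.76), Pfkfb3 (-2.53), Tff3 (-3.66), Atp11a (-4.0) and Apoa4 (-2.06). None of the 62 reversed in any setting tried, and between 42 and 62 of them still passed in each. In 34 of them the call was kept in every setting tried, and in 28 it was lost in at least 1. Among the 16 fits with 1 array left out, the number in which the call was lost, in brackets, was above 0 for Clec4g (13), Acot3 (11), Dnaja1 (11), Gdf15 (10), Mt1 (9), Cyp2b9 (8), Gnmt (8), Socs3 (7), Apoa4 (5), Pfkfb3 (5), Cxcl9 (4), Cyp4a14 (4), Hspa1a (4), Saa1 (4), Dnajb1 (3) and Ccl7 (1). Among the other 11 settings it was above 0 for Clec4g (4), Acot3 (7), Dnaja1 (7), Gdf15 (5), Mt1 (1), Cyp2b9 (3), Gnmt (3), Socs3 (2), Apoa4 (2), Pfkfb3 (2), Cxcl9 (1), Cyp4a14 (6), Hspa1a (2), Saa1 (1), Dnajb1 (2), Ccl7 (2), Abcg5 (1), Aldh1a1 (4), Chordc1 (2), Clec4f (1), Col3a1 (1), Fos (3), Gpt (1), Igfbp2 (2), Ms4a6d (2), Prtn3 (1), Thbs1 (2) and Timd4 (1). With median scaling the 7 lost calls (Gpt, Aldh1a1, Abcg5, Acot3, Gnmt, Cyp4a14 and Cyp2b9) were all among the 15 positive differences. No cause of these differences was tested.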

How the results depend on the processing

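Counts of changed genes stayed within 1.5 times of the 3292 reported except with normexp correction (1900), with the 2 groups fitted alone (1248), with a replicate block added to that fit, chosen after seeing the data (1271), and with the deposited table at its matched arrays (2128). Leaving out 1 array gave 2571 to 3321, and 1782 to 2705 for the difference of diet changes, for which the other settings kept within 1.5 times of 2408 (3515 with normexp correction). A replicate block in the full fit gave 3302 and 2417 and changed no call of the diet contrast under the agonist in the 157 named genes. Of the 62 differences of diet change among them 60 still passed, and Acot3 and Dnaja1 did not. Every liver correlated best with the same-numbered liver, as a hint from the data only. As deposited, the processed table shared 639 of its 3411 calls with those reported, and 50 genes took the opposite sign there, by the exchange of its columns: Cyp2a22 (-0.94), Cyp3a44 (-4.31), Sult1e1 (-1.33), Slc22a27 (-0.33), Moxd1 (0.29), Elovl3 (0.23), Susd4 (0.58), Igf1 (0.05), Aldh1a1 (-0.34), Abcc4 (-0.60), Mat2a (-0.27), Chka (0.43), Mat1a (-0.36), Trib3 (-1.59), Psat1 (-1.37), Asns (-0.38), Nupr1 (-3.32), Fgf21 (-2.68), Pdia3 (0.00), Hsp90aa1 (0.35), Dbp (-0.22), Ciart (-0.06), Usp2 (-0.44), Tef (-0.21), Per3 (-0.33), Per2 (-0.86), Fasn (0.37), Cd36 (-1.38), Cidec (-2.26), Acot2 (-0.55), Cyp27a1 (0.14), Crem (0.12), Pck1 (-0.59), Ppargc1a (-0.52), Ccne1 (-0.04), Mcm2 (-1.0), Ccnd1 (-1.95), C9 (0.41), Fabp5 (0.04), Gpnmb (-0.55), Trem2 (-0.76), Timp1 (-1.04), Pdgfra (-0.44), Gsta2 (-1.40), Mttp (0.52), Stat5b (0.58), Rgs5 (-0.58), Apoa4 (-0.28), Gpt2 (-0.88), Cyp2a4 (-1.90). Sign changes elsewhere concerned genes that did not pass in the full fit: Gnmt with normexp (-0.05), Gnmt with median scaling (-0.06), Fasn with quantile (0.03), Mki67 with mean over probes (0.25), Mt1 with mean over probes (-0.31), Fasn with array weights (0.43), Gnmt with matched table (-0.05), Fasn with matched table (0.03), and, over the fits with 1 array left out, Fasn (-0.97 to 0.67), Lcn2 (-1.04 to 0.67), Gnmt (-0.03 to 0.28), Mki67 (-0.62 to 0.19), Mt1 (-0.54 to 0.83), Gcgr (-0.29 to 0.09), Cdc20 (-1.29 to 0.06), Pck1 (-0.03 to 0.50). With the 8 arrays alone 23 of the 157 named genes lost their call and 2 gained one. With a replicate block added to that fit 27 lost it and 2 gained one. The call was lost in 16 with normexp correction, 18 with the matched table and 15 with array weights. The log2 change shrank by over 1.5 times in 30 of the 157 genes with normexp correction and in 31 with the matched table. Of the 25 lists with a median of at least 0.3 in size, the median moved by over 1.5 times in 11 with normexp correction, 8 with the matched table and 5 with median scaling, and a count of rises or falls moved that far in 17, 15 and 14 of 45 lists. List medians close to 0 (methionine, lipid droplets, matrix, fatty acid oxidation, glucose, lipoproteins, p53 and B cell lists) change sign with median scaling, and genes near background limit what the folds show. The causes were not tested.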
